A study of Papio hamadryas with 12 samples.

Results

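A gene on chromosome 12 and a gene on chromosome 3 of the baboon genome were high together in 5 of 12 blood libraries and low together in the other 7. The chromosome 12 gene is ENSPANG00000017851 (chromosome 12 from 18264927 to 18273261, a span of 8335 bases) and the chromosome 3 gene is ENSPANG00000018553 (chromosome 3 from 3253543 to 3264253, a span of 10711 bases), in the coordinates of the deposited table (Ensembl PapAnu2 release 76). These 2 genes of the 27533 in the table were chosen by their levels in these same libraries, high in the same 5 of them, so their levels, their correlation and their diet changes are given below as a description, with no test. Each has 1 annotated transcript, and no other gene of the table overlaps either span. The table names genes by Ensembl ID and does not pair IDs with symbols, so no function is given for them.

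RNA was sequenced from the buffy coat of 6 adult half-sib baboons (Papio hamadryas), 3 with high and 3 with low plasma LDL-C, and the study asked how the 2 phenotypes respond to diet. Each baboon was sampled after 7 weeks on a high-cholesterol, high-fat (HCHF) diet and on the chow diet before it, so that the 4 groups are high LDL-C on HCHF, high LDL-C on chow, low LDL-C on HCHF and low LDL-C on chow, with 3 libraries each. The numbers used here, 4 to 6 for high LDL-C animals and 1 to 3 for low LDL-C animals, carry no order, and both libraries of an animal are known from its ID in the labels. The labels do not say which animals are half-sibs of each other, and the labels and the paper give different names to the cells (white blood cells and PBMC).

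The buffy coat is the layer between plasma and red cells in centrifuged blood, and it holds white blood cells and platelets together with some red cells. A gene's level in such a sample depends on how many of the cells that express it are present and on how much RNA each of them holds, and these cannot be told apart in a bulk library. White blood cells are known to turn on groups of genes together, from many chromosomes, when their state changes, and such groups appear as genes whose levels go up and down in the same samples. White blood cell markers could not be checked here because the table gives no symbols.

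Total counts were 3434628 to 6347851 in HCHF libraries and 3700405 to 8518137 in chow libraries. The 2 most abundant genes took 89.3% of the counts of the chow library of baboon 2, 16.8% of the chow library of baboon 1, 16.3% of the HCHF library of baboon 6 and 43.5 to 63.9% of the other 9 libraries. This left 915087 counts for all other genes in the chow library of baboon 2, the fewest of any library. The chow library of baboon 1 and the HCHF library of baboon 6 stood apart from the rest in the number of genes read (11294 and 11212 genes with at least 10 counts, against 5183 to 10258 in the other 10). Levels below are in CPM, the count relative to the library total adjusted by edgeR's TMM factor, and 11579 genes with a mean of at least 1 CPM, both genes among them, were compared.

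The chromosome 12 gene was at 106 CPM in baboon 5 on HCHF, 10.7 CPM in baboon 4 on HCHF and 1.55 CPM in baboon 6 on HCHF, against 4.12 CPM in baboon 5, 1.53 CPM in baboon 4 and 2.99 CPM in baboon 6 on chow. In low LDL-C baboons it was at 244 CPM in baboon 2, 94.4 CPM in baboon 3 and 5.08 CPM in baboon 1 on HCHF, against 193 CPM in baboon 2, 80.0 CPM in baboon 3 and 6.65 CPM in baboon 1 on chow. Baboons 2 and 3 were thus high on both diets, baboons 1 and 6 were low on both, and baboon 5 was high on HCHF and low on chow. The counts behind these levels were 455 in baboon 5 on HCHF against 20 on chow, and ran from 12 to 1126 over all libraries, above the limit of 3 counts that a count of 0 allows.

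The chromosome 3 gene was at 60.5 CPM in baboon 5 on HCHF, 9.67 CPM in baboon 4 on HCHF and 2.85 CPM in baboon 6 on HCHF, against 7.63 CPM in baboon 5, 2.94 CPM in baboon 4 and 4.58 CPM in baboon 6 on chow. In low LDL-C baboons it was at 102 CPM in baboon 2, 70.0 CPM in baboon 3 and 7.84 CPM in baboon 1 on HCHF, against 135 CPM in baboon 2, 80.3 CPM in baboon 3 and 5.66 CPM in baboon 1 on chow. The same 5 libraries were the high ones: both libraries of baboons 2 and 3 and the HCHF library of baboon 5. Counts of this gene were 261 in baboon 5 on HCHF against 37 on chow, and ran from 22 to 472 over all libraries.

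**Figure D1:**
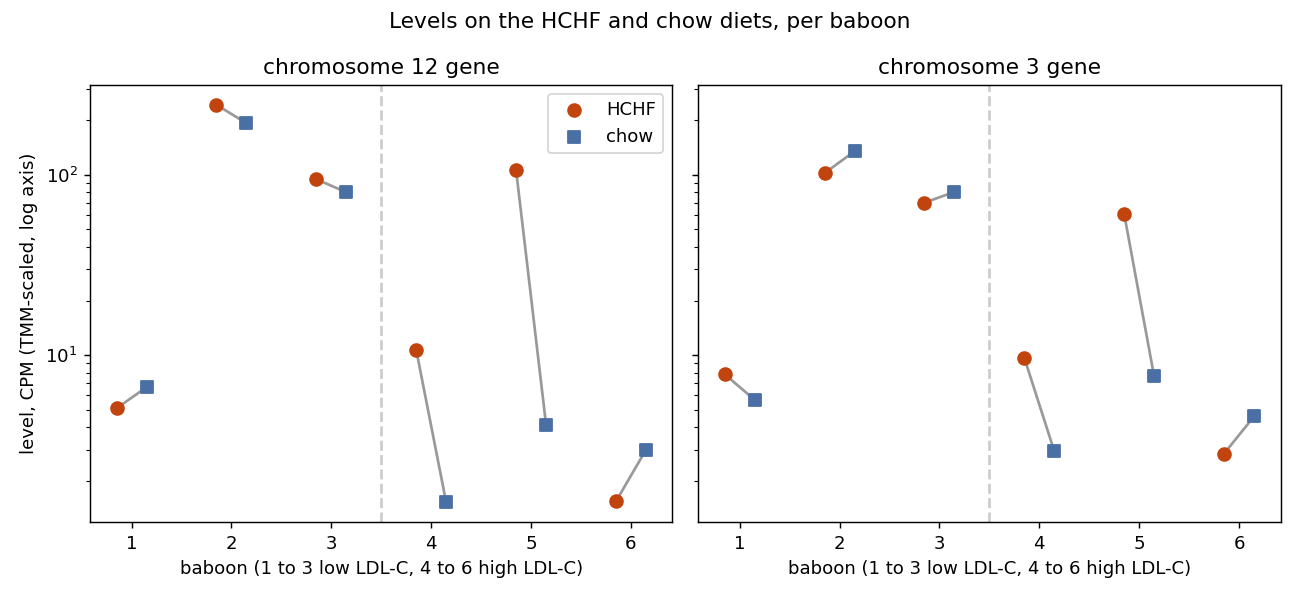
Levels of the chromosome 12 gene (left panel) and the chromosome 3 gene (right panel) in CPM on a log axis for baboons 1 to 6, with HCHF libraries as circles, chow libraries as squares and a line joining the libraries of 1 baboon. In both panels baboons 2 and 3 are high on both diets, baboon 5 is high on HCHF only (106 against 4.12 CPM for the chromosome 12 gene) and the other libraries are at 10.7 CPM or less.

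For both genes the widest gap in the order of the 12 libraries lay between the 5 high and the 7 low ones. The chromosome 12 gene ranged from 80.0 to 244 CPM (median 106) in the 5 libraries and from 1.53 to 10.7 CPM (median 4.12) in the 7. The chromosome 3 gene ranged from 60.5 to 135 CPM (median 80.3) in the 5 libraries and from 2.85 to 9.67 CPM (median 5.66) in the 7. At the edge of this gap, the lowest of the 5 libraries was 7.46 times the highest of the 7 for the chromosome 12 gene (80.0 CPM in baboon 3 on chow, against 10.7 CPM in baboon 4 on HCHF) and 6.26 times for the chromosome 3 gene (60.5 CPM in baboon 5 on HCHF, against 9.67 CPM in baboon 4 on HCHF). The library just below the gap was the HCHF library of baboon 4 for both genes.

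Few genes varied as widely, which follows in part from the choice of the 2 genes by these levels. The highest library held 159 times the level of the lowest for the chromosome 12 gene and 47.3 times for the chromosome 3 gene. On the scale of log2(CPM + 0.5), the SD over the 12 libraries was 2.65 for the chromosome 12 gene and 2.07 for the chromosome 3 gene, against a median of 0.55 over all genes compared. By this SD the chromosome 12 gene ranked 7 and the chromosome 3 gene ranked 58 of 11579. Among genes with a mean level within 2-fold of their own, they ranked 6 of 1380 and 19 of 2142.

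By group, the chromosome 12 gene averaged 39.3 ± 57.6 CPM in high LDL-C baboons on HCHF and 2.88 ± 1.30 CPM on chow, and 115 ± 121 CPM in low LDL-C baboons on HCHF and 93.4 ± 94.1 CPM on chow (SD, n = 3 each). The chromosome 3 gene averaged 24.3 ± 31.5 CPM in high LDL-C baboons on HCHF and 5.05 ± 2.38 CPM on chow, and 60.1 ± 48.0 CPM in low LDL-C baboons on HCHF and 73.6 ± 64.8 CPM on chow (SD, n = 3 each). Low LDL-C means were thus above high LDL-C means on either diet, but the ranges of the 3 baboons overlapped between all neighbours in this order. On chow the 3 high LDL-C baboons were all below the 3 low LDL-C baboons for the chromosome 12 gene (at most 4.12 CPM, against at least 6.65 CPM), as for 3.82% of all genes compared. For the chromosome 3 gene the groups overlapped on chow, with 7.63 CPM in baboon 5 against 5.66 CPM in baboon 1. On HCHF the phenotypes overlapped for both genes, where 4.92% of all genes compared had the 3 high LDL-C baboons below the 3 low LDL-C ones.

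The 2 genes followed each other closely. Over the 12 libraries the Pearson correlation of their log2 levels was 0.989 (Spearman 0.937). The libraries fall into 2 clusters that the choice of the genes fixed, so this value mostly restates the gap. Within the 7 low libraries the correlation was 0.907 (Spearman 0.857), with levels of 12 to 71 counts. It was 0.995 over the 6 HCHF libraries and 0.990 over the 6 chow libraries, and 0.986 without the 2 libraries farthest from the median of the chromosome 12 gene. It was 0.987 without baboons 1 and 6 and 0.987 without the chow library of baboon 2, the libraries that stand apart. Each gene was the one with the highest correlation to the other among all genes compared, where the next gene reached 0.957 with the chromosome 12 gene and 0.970 with the chromosome 3 gene. The points share animals in pairs and the genes were chosen as a pair, so no p is given.

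**Figure D2:**
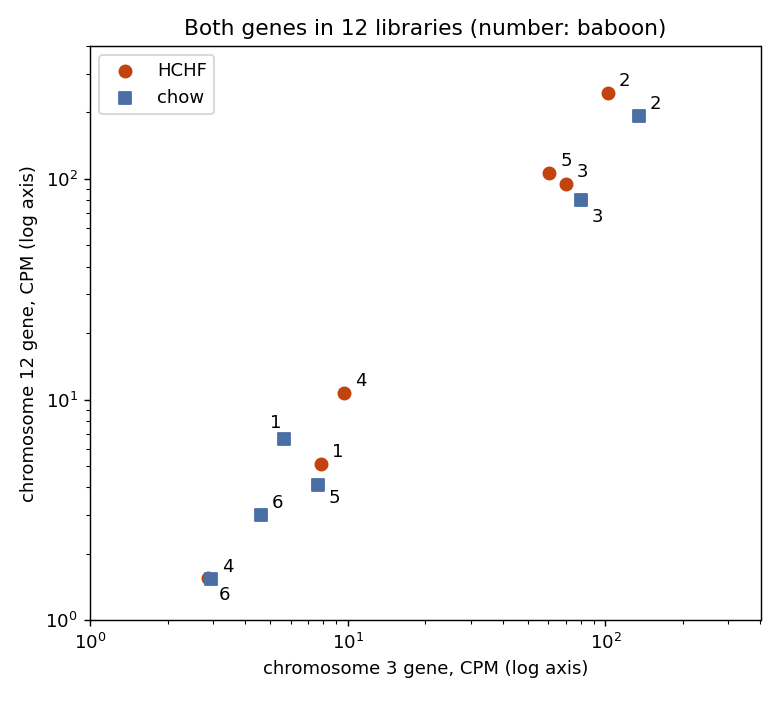
Level of the chromosome 12 gene against that of the chromosome 3 gene, both in CPM on log axes and not scaled for gene length, in 6 HCHF (circles) and 6 chow (squares) libraries, each with the number of its baboon. The 5 high libraries form a cloud at 60.5 CPM or more and the 7 low libraries another at 10.7 CPM or less, where the HCHF library of baboon 6 and the chow library of baboon 4 lie on top of each other.

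They were not in a fixed proportion to each other. The ratio of the chromosome 12 count to the chromosome 3 count, which no library scaling can move, was 0.997 to 2.39 (median 1.44) in the 5 high libraries and 0.522 to 1.18 (median 0.647) in the 7 low ones. It was 1.74 in baboon 5 on HCHF and 0.541 on chow. As a share of the counts of both genes, the chromosome 12 gene held 63.5% in baboon 5 on HCHF (Wilson 95% interval 60.0 to 67.0%) and 35.1% on chow (24.0 to 48.1%), so these intervals did not overlap. In baboon 4 the share was 52.6% on HCHF (44.2 to 60.8%) and 34.3% on chow (20.8 to 50.8%), with intervals that overlap. Intervals cover counting error only. On the log2 scale the chromosome 12 gene differed by 1.27 for each unit of the chromosome 3 gene over the 12 libraries.

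The counts of both genes were whole numbers in all 12 libraries (within 1e-06), as for 66.9% of the genes compared. The expected counts are estimates in which a read that fits several transcripts can be divided, so that a divided read would leave a fraction. Whether reads of a near-identical copy elsewhere were placed wholly on one of these genes was not tested.

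The diet change was large in 2 of the 6 baboons. As the log2 of HCHF over chow with 0.5 CPM added, the chromosome 12 gene differed by 4.52 in baboon 5, by 2.46 in baboon 4 and by -0.76 in baboon 6 (all high LDL-C), and by -0.36, 0.34 and 0.24 in baboons 1, 2 and 3 (all low LDL-C). Without the added 0.5 CPM, its level on HCHF was 25.6 times that on chow in baboon 5 and 6.99 times in baboon 4. The chromosome 3 gene differed by 2.91 in baboon 5, by 1.56 in baboon 4 and by -0.60 in baboon 6, and by 0.44, -0.40 and -0.20 in baboons 1, 2 and 3. Its level on HCHF was 7.94 times that on chow in baboon 5 and 3.29 times in baboon 4.

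Of all 11579 genes compared, the chromosome 12 gene had the highest log2 change of any in baboon 5 (rank 1) and ranked 4 in baboon 4, and the chromosome 3 gene ranked 7 in baboon 5 and 25 in baboon 4. In the other high LDL-C animal, baboon 6, both were in the lower part of the order (ranks 10552 and 10064). In low LDL-C baboons their ranks ran from 3097 to 8268, within the bulk of genes. The 2 genes were chosen with baboon 5 in view, so their ranks in that animal follow in part from the choice. The directions in low LDL-C baboons depended on the scaling. With the library total without the 2 most abundant genes in place of the TMM-adjusted total, the change of the chromosome 12 gene in baboon 3 was -0.39, and the changes of the chromosome 3 gene in baboons 1 and 2 were -0.11 and 0.28, each of opposite sign to the values above. That scaling moved the median change of all genes by -0.57, 0.65 and -0.61 in baboons 1, 2 and 3, and by -0.34 in baboon 5, where the differences of the 2 genes were then 4.28 and 2.62. Under it the chromosome 12 gene kept ranks 1 and 4 in baboons 5 and 4, while the chromosome 3 gene ranked 26 and 56.

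Averaged over the 6 baboons, the log2 change was 1.07 ± 2.02 for the chromosome 12 gene and 0.62 ± 1.37 for the chromosome 3 gene (SD, n = 6), against a median near 0 (-0.01) over all genes compared. Over high LDL-C baboons it was 2.07 ± 2.66 and 1.29 ± 1.77, and over low LDL-C baboons 0.07 ± 0.38 and -0.05 ± 0.44 (SD, n = 3 each). All of these means were smaller than the spread among the baboons they cover. Baboon 5 carried much of the mean: without it the change was 0.38 ± 1.25 and 0.16 ± 0.88 (SD, n = 5). The 2 genes differed in the same direction in the 3 high LDL-C baboons and in opposite directions in the 3 low LDL-C baboons, where with the library total without the 2 most abundant genes they differed in the same direction in each.

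A gene on chromosome 1 (from 171723964 to 171731461) also ranked high in both of these animals (rank 9 in baboon 5 and 5 in baboon 4), and it was at 348 CPM in baboon 5, 157 CPM in baboon 4 and 19.0 CPM in baboon 6 on HCHF, against 46.4, 38.1 and 18.3 CPM on chow. It was singled out after its values were seen. Among low LDL-C animals it was at 178, 691 and 490 CPM in baboons 1, 2 and 3 on HCHF, against 61.4, 481 and 174 CPM on chow, so that it was above its high LDL-C chow levels in every low LDL-C library. Across all genes compared, the changes of baboons 4 and 5 had a correlation of 0.055, near 0. Genes are not independent replicates, and this value is a description.

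**Figure D3:**
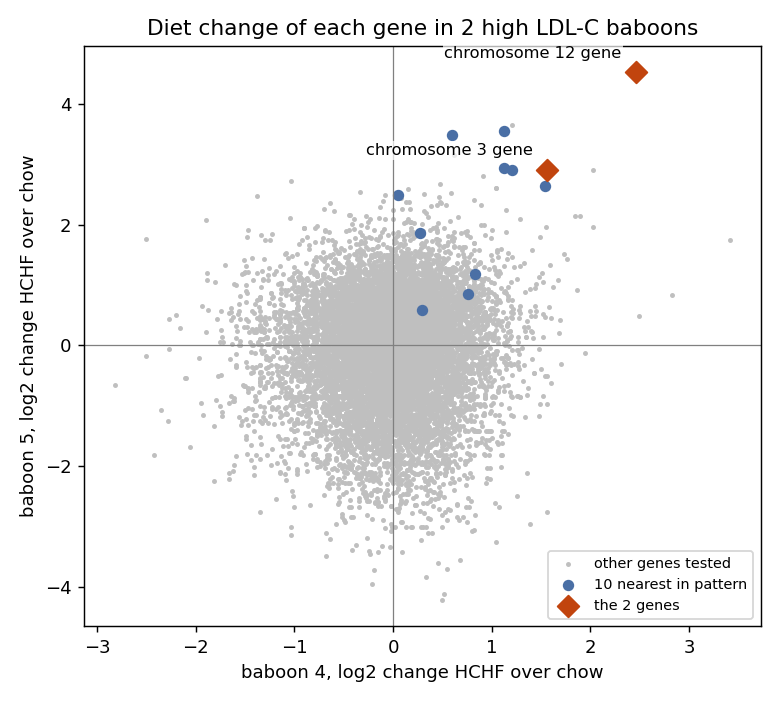
Log2 of HCHF over chow for each of the 11579 genes in baboon 5 (vertical axis) and baboon 4 (horizontal axis), with 0.5 CPM added, where diamonds are the 2 genes, large points the 10 genes nearest to them in pattern and small points all others. The chromosome 12 gene lies at 4.52 and 2.46 and the chromosome 3 gene at 2.91 and 1.56, outside a cloud that is centred near 0 in both animals.

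The labels of the baboon 5 libraries bear on this pattern, since a single pair changes class between diets. Across all genes compared, the HCHF library of baboon 5 had its highest correlation with the chow library of the same baboon (Pearson 0.902 on log2 levels), while that chow library had its own highest one with the chow library of baboon 4. This measure paired an animal with itself in only some cases: the library nearest to the HCHF library was the chow library of the same baboon in baboons 4, 5 and 6 and a library of another baboon in baboons 1, 2 and 3. A set of 13 genes differed between the other 5 baboons by at least 3 on the log2 scale while staying within 2-fold between diets in each of them. In baboon 5, 7 of these 13 were within 2-fold between diets and 1 was at least 4-fold apart. Of all 11579 genes compared, 1099 were at least 2-fold higher and 1861 at least 2-fold lower on HCHF in this animal. A change of at least 4-fold was seen there in 3.77% of genes. Counts as small as 7 of 13 are a description, and nothing is read from them. For the other animals, the same construction gave from 6 of 12 genes within 2-fold in baboon 3 to 8 of 8 in baboon 4. Whether both libraries of baboon 5 come from the same animal was not tested further.

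The labels list an index sequence for each library, and every index is used for a second library of the other phenotype. The libraries that share an index with the 5 high libraries were all among the 7 low ones, with 1.53 to 10.7 CPM of the chromosome 12 gene and 2.85 to 9.67 CPM of the chromosome 3 gene. The partner of the HCHF library of baboon 5 was the HCHF library of baboon 1, at 5.08 and 7.84 CPM. No pair of libraries with a shared index was high together. The paper states that all samples were multiplexed in a single pool on an individual lane. Whether shared indexes had a part in these levels was not tested.

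The levels also moved with the share of counts in the 2 most abundant genes. Over the 12 libraries the log2 level of the chromosome 12 gene had a Pearson correlation of 0.634 (Spearman 0.510) with this share, and that of the chromosome 3 gene 0.704 (Spearman 0.720). Without the 2 libraries farthest from the median share, the chow library of baboon 2 and the HCHF library of baboon 6, these were 0.416 (0.236) and 0.524 (0.515). In baboon 5 the share was 47.9% on HCHF and 55.6% on chow, so that the library with the higher levels of both genes had the lower share. The part of this share in the pattern was not tested.

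Genes that share the pattern were few at a wide gap. Of the 11579 genes compared, 113 had all 5 of these libraries above the other 7 with no overlap (0.976%), and 7 had a gap of at least 2-fold. At a gap of at least 4-fold, with 0.5 CPM added, there were 3 genes (0.0259%), which were the 2 genes and a gene on chromosome 15 (from 34925369 to 34966518). The count of 113 was 36 with the library total without the 2 most abundant genes, an alternative chosen after seeing the data, and the count at 4-fold was then 4. Without baboons 1 and 6 the counts were 393 and 4, and without the chow library of baboon 2 they were 145 and 3. The chromosome 15 gene ranged from 7.42 to 30.6 CPM in the 5 libraries and from 0 to 0.777 CPM in the 7. It was at 7.42 CPM in baboon 5 on HCHF, against 0.206 CPM on chow. In 6 of the 7 low libraries it was at 0.596 CPM or less, so that its fold changes depend on the added 0.5 CPM.

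The 10 genes nearest in pattern, by the Pearson correlation of log2 levels over 12 libraries with the mean of the standardized levels of the 2 genes, had correlations of 0.936 to 0.966. They lay on 10 different chromosomes, none of them chromosome 12 or 3, and all 10 had the same 5 highest libraries. The list depended on the measure and on single animals: 2 of the 10 genes remained with Spearman correlations, 5 without baboon 3, 6 without baboon 2 and 5 without baboons 1 and 6. In all, 104 genes had a correlation of at least 0.8 and 46 of at most -0.8, with a median of -0.083 over the 11577 genes ranked. The nearest, on chromosome 4 (from 14025161 to 14042913, correlation 0.966), was at 8.81, 2.11 and 1.55 CPM in baboons 5, 4 and 6 on HCHF, against 2.06, 1.66 and 1.79 CPM on chow. Among low LDL-C animals this gene was at 21.9, 18.6 and 2.54 CPM in baboons 2, 3 and 1 on HCHF, against 25.4, 10 and 1.49 CPM on chow. As the ranking selects for, it was high in baboons 2 and 3 on both diets and in baboon 5 on HCHF only.

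A gene on chromosome 13 (from 27423601 to 27442322, correlation 0.953) was at 44.3, 5.59 and 1.30 CPM in baboons 5, 4 and 6 on HCHF, against 5.36, 2.3 and 3.39 CPM on chow. Among low LDL-C animals it was at 42.5, 39.5 and 1.85 CPM in baboons 2, 3 and 1 on HCHF, against 30.6, 17.3 and 2.28 CPM on chow. As for the 2 genes, baboon 4 on HCHF was the highest of the 7 low libraries, here just above baboon 5 on chow.

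Not all of the nearest genes were near 0 in the low libraries. A gene on chromosome 2 (from 55194969 to 55202692, correlation 0.952) ranged only from 60.4 to 180 CPM over all libraries, and in baboon 5 it was at 156 CPM on HCHF against 104 CPM on chow. A gene on chromosome 9 (from 102183689 to 102201196, correlation 0.952) ranged from 11.5 to 237 CPM and was at 207 CPM in baboon 5 on HCHF against 33.0 CPM on chow. Of the 10 nearest genes, this chromosome 9 gene also had the highest correlation with the 2 genes within the 7 low libraries (0.83, against 0.16 for the chromosome 15 gene, the lowest). The nearest genes thus shared the same 5 highest libraries, but not the order within the low ones. They differed widely in the size of the difference.

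All 10 nearest genes were higher on HCHF in baboon 5, by 0.59 to 3.54 on the log2 scale, and 8 of them by at least 2-fold. In baboon 4 all 10 were also higher on HCHF, by 0.05 to 1.54. Of these, the genes on chromosomes 5 (0.151 against 0.128 CPM) and 15 (0.453 against 0.128 CPM) were at 3 counts or fewer in both libraries. Nothing is read from the direction of these changes in baboon 4. In baboon 6, 3 of the 10 were higher on HCHF (range -1.22 to 1.35). In baboons 1, 2 and 3, the low LDL-C animals, 6, 7 and 10 of the 10 genes were higher on HCHF, with changes of -0.27 to 1.5, -0.24 to 0.91 and 0.02 to 1.61. Over all genes compared the median change was -0.04, 0.04, 0.0, 0.0 and 0.01 in baboons 1, 2, 3, 4 and 6.

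**Figure D4:**
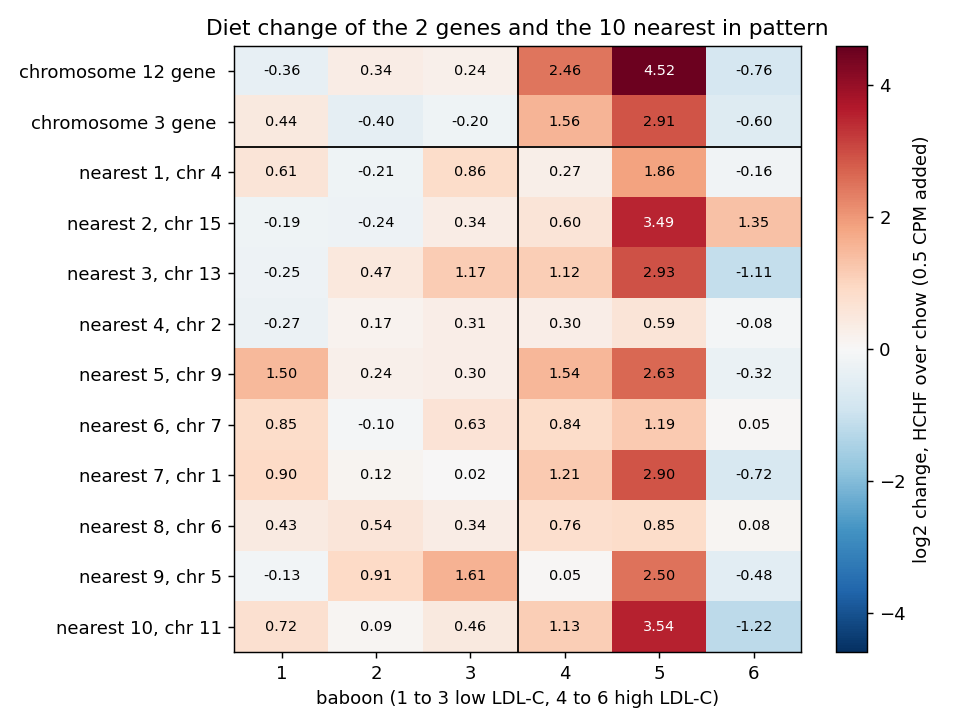
Log2 of HCHF over chow (0.5 CPM added) in each baboon for the 2 genes (top) and the 10 genes nearest in pattern, listed by rank with their chromosome, on a color scale from blue (lower on HCHF) to red (higher on HCHF). The column of baboon 5 is positive for all 12 genes (0.59 to 4.52) and the column of baboon 4 likewise (0.05 to 2.46). In baboon 4 the nearest genes on chromosomes 5 and 15 were at 3 counts or fewer in both libraries. The column of baboon 3 is positive for the 10 nearest genes (0.02 to 1.61) and the chromosome 12 gene (0.24), and negative for the chromosome 3 gene (-0.20). The columns of baboons 1, 2 and 6 are mixed in sign.

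Since these genes were picked over all 12 libraries, their changes in baboon 5, and likewise in baboon 4 and the other baboons, are partly a result of the choice. The choice was therefore repeated on the 10 libraries of the other 5 baboons, where the 2 genes had a correlation of 0.990 with each other and the 10 nearest genes had correlations of 0.948 to 0.975 with them. Of these 10 genes, 8 were also among the 10 above. In the libraries of baboon 5, which were left out of this ranking, 9 of the 10 were higher on HCHF and 7 were higher by at least 2-fold. Their median log2 change was 2.25 (range -0.24 to 3.54). Over all genes compared, 9.49% were at least 2-fold higher on HCHF in baboon 5 and the median change was 0. The one gene of the 10 that was lower, on chromosome 13 (from 42213916 to 42216197), changed by -0.24. The 2 genes that the others were ranked against were chosen with baboon 5 in view, so baboon 5 still had a part in the choice. The 10 genes go up and down together and come from 1 animal here, so these counts are a description.

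Seen from the other side, 69 genes besides the 2 were at least 4-fold higher on HCHF in baboon 5. Of these, 12 (17.4%) had a correlation of at least 0.8 with the 2 genes over the 12 libraries, against 0.898% of all genes ranked. Baboon 5 is part of that correlation, so the percentages are a description. The rest of the 69 had a correlation under 0.8.

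The neighbours of the 2 genes on their chromosomes varied less than the 2 genes, which were chosen for their high and low levels. Position was not used in the choice of the 2 genes, so these neighbours were tested in the fit over all genes. They were the 5 genes on each side of each gene that passed a mean of 1 CPM, 20 in all, at distances of 145985 to 4205831 bases from the chromosome 12 gene and 212416 to 509917 bases from the chromosome 3 gene. Of the 20, 0 had the same 5 highest libraries, which 0.976% of all genes compared had, so that a count of 0 is near the background and nothing is read from it. Their log2 levels had correlations of -0.53 to 0.63 with the chromosome 12 gene and -0.24 to 0.73 with the chromosome 3 gene. The SD of their log2 levels was 0.31 to 0.71 and 0.30 to 1.21, around the median of 0.55 over all genes compared. It was 2.65 and 2.07 for the 2 genes, a contrast that follows in part from their choice.

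The gene closest to the chromosome 12 gene (from 18419246 to 18527548) stayed between 21.1 and 45.2 CPM in the 12 libraries and was at 21.1 CPM in baboon 5 on HCHF against 27.4 CPM on chow. Before the chromosome 12 gene the next annotated gene lay 985700 bases away and had 0 counts in every library. On both sides of the chromosome 3 gene the next annotated genes had 4 and 1 counts over all 12 libraries. The neighbour with the highest correlation (0.73) was on chromosome 3 from 3513660 to 3528145, with 33.2 CPM in baboon 5 on HCHF, its highest level, against 14.4 CPM on chow.

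In edgeR's quasi-likelihood test over all 6 baboons, with a term for each baboon, 0 of the 20 neighbours passed the threshold of the study (FDR of 20% by Benjamini-Hochberg, with an unadjusted p under 0.05), where the background was 0.0% of 11579 genes and the lowest adjusted p among the 20 was 0.929. At an unadjusted p under 0.05 there was 1 of the 20, where 5.32% of all genes were below it. DESeq2 called 0 of the 20, with 0 at an unadjusted p under 0.05. Within high LDL-C baboons 0 of the 20 were called by edgeR (background 0.112%) and 0 were at an unadjusted p under 0.05 (background 4.34%). Within low LDL-C baboons 0 of the 20 were called (background 0.0%) and 1 was at an unadjusted p under 0.05 (background 6.05%). Their fitted log2 fold changes over all 6 baboons were -0.47 to 0.56 around the chromosome 12 gene and -2.36 to 0.45 around the chromosome 3 gene. The value of -2.36 belongs to a gene whose median was 0.129 CPM and whose highest level was 9.43 CPM.

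**Figure D5:**
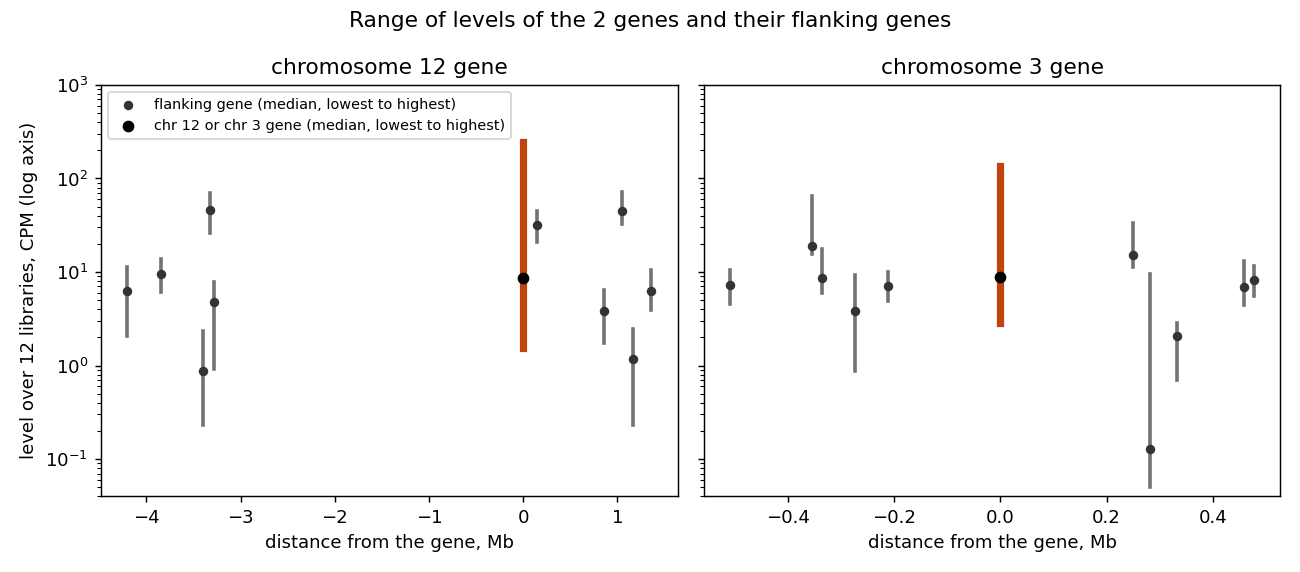
Lowest, median and highest level over the 12 libraries, in CPM on a log axis, of the 2 genes (thick bars at 0) and of the 5 genes compared on each side, by distance in Mb, with a level of 0 drawn at 0.05 CPM. The bars of the 2 genes, chosen for their high and low levels, run from 1.53 to 244 CPM and from 2.85 to 135 CPM. Most neighbours span a much narrower range.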

How the data were processed

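Paired-end reads of poly-A selected RNA were handled by the authors with CASAVA 1.8, trimmed, and aligned with STAR 2.3.1j (annotation Ensembl PapAnu2 release 76). Partek's EM algorithm then divided reads among transcripts, so the deposited numbers are expected counts, 1 value a transcript and library, with no scaling for length or depth by the authors. Here the expected counts were summed per gene, rounded to whole numbers and scaled to CPM with TMM factors. Genes with a mean of at least 1 CPM of the unadjusted library total were kept. Diet responses of neighbouring genes were tested (two-sided) with edgeR 4.0.16 (glmQLFit and glmQLFTest, limma 3.58.1, R 4.3.3) on all genes kept with a term for each baboon, following the paired design and the FDR of 20% of the study, and with DESeq2 1.42.0 as an alternative. The fits were tested on simulated data. Correlations, ranks and figures were made with Python 3.11.15, numpy 2.4.6, pandas 2.3.3, scipy 1.17.1 and matplotlib 3.10.9.

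The 2 genes, the comparisons and the lists were chosen with earlier results of these data known. The genes named were the 2 genes, the 5 genes on each side of each that passed the filter, and the 10 genes with the highest correlation, while any other gene is named as chosen after its values were seen. Planned lists of genes with related symbols and of cell type markers could not be applied, because the table holds no symbols. No baboon sequence is shown, because no reference was used here. The pairing comes from the animal in the labels. Deviations of the HCHF and chow libraries of a baboon from their group means had correlations of 0.188, 0.0805, 0.242, 0.397, 0.254 and 0.137 across genes in baboons 1 to 6. Alternatives were other scalings, pseudocounts, filters and tools, a fit with no term for the baboon and leaving out each baboon. TPM values and miRNA data were not analysed here.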

Additional observations from a re-analysis of the deposited data

How the results depend on the processing

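The correlation of the 2 genes stayed between 0.985 and 0.991 when each baboon was left out, and it was 0.937 as a Spearman correlation. Leaving out a baboon keeps libraries on both sides of the gap, so this correlation still mostly restates the gap. The mean log2 change over baboons was positive under every alternative run, from 0.38 (without baboon 5) to 1.44 for the chromosome 12 gene and from 0.16 (without baboon 5) to 0.86 for the chromosome 3 gene when 1 baboon was left out. Without baboons 1 and 6, whose chow and HCHF libraries stand apart (chosen after seeing the data), it was 1.89 and 0.97. The number of genes with the same 5 highest libraries was 132 to 378 with 1 baboon left out, where fewer libraries have to be in order, 393 without baboons 1 and 6 and 36 with the library total without the 2 most abundant genes. At a 4-fold gap it was 3 to 6, with 6 without baboon 3. Of the 10 nearest genes, 5 to 9 remained with 1 baboon left out (5 without baboon 3 and 6 without baboon 2), 5 without baboons 1 and 6, and 2 with Spearman correlations. The causes were not tested.

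Of the neighbouring genes, 0 were called in the fit over all 6 baboons with and without the replicate block and under all other alternatives run. This count was not made for the alternatives within a phenotype. Over all genes, the fit with the replicate block (a term for each baboon) called 0 genes in low LDL-C baboons, 13 in high LDL-C baboons and 0 over all 6 at the FDR of 20%, and without the block 0, 0 and 0. DESeq2 called 15, 3 and 49, edgeR without a filter 291, 217 and 55, and edgeR at a mean CPM of at least 5 called 2 in high LDL-C baboons. Leaving out 1 baboon gave 0 to 1016 genes in low LDL-C baboons (1016 without baboon 2, 49 without baboon 3), 0 to 45 in high LDL-C baboons (45 without baboon 1, 26 without baboon 4, 0 without baboon 5 and 0 without baboon 6) and 0 to 40 over all 6 (40 without baboon 1). The low levels of the 2 genes rest on 12 to 71 counts a library, which limits the precision of small differences among these libraries.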
